A study of Cucumis sativus with 9 samples.

Results

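*CsWRKY10*, *CsWRKY11* and *CsWRKY50* are 3 cucumber genes of the WRKY transcription factor family, all of group IIc. *CsWRKY10* (CsaV3_2G017720) and *CsWRKY11* (CsaV3_2G017760) lie near each other on chromosome 2, and *CsWRKY50* (CsaV3_6G042280) is the segmental duplicate of *CsWRKY10* on chromosome 6. The 3 genes were taken from the 24880 genes listed in each library, because *CsWRKY10* and *CsWRKY50* were strongly induced by heat while the neighbour *CsWRKY11* was not. The levels of these 3 genes after heat were therefore the reason for the choice, and they are given as a description with no test.

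RNA was sequenced from cucumber leaves of the 'Chinese long' 9930 line, taken from seedlings 3 weeks old that had grown at 25 °C by day and 18 °C by night. Seedlings were held at 42 °C, and leaves were collected after 0 h (HT0h), 3 h (HT3h) and 6 h (HT6h), with 3 libraries per time. The 0 h seedlings served as the untreated control. No unheated leaves of 3 h or 6 h were analysed here, so hours of heat and hours of the day cannot be told apart. The study's methods call the 3 libraries of a time biological replicates, without saying which plants each came from.

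WRKY proteins bind DNA through a conserved domain that holds the heptapeptide WRKYGQK and, after it, a zinc finger. Most of them bind W-box elements in promoters, and many act in responses to pathogens, salicylic acid and abiotic stress. Group IIc proteins hold a single WRKY domain, and some carry the variant heptapeptide WRKYGKK, which in other plants goes with a weaker or altered binding of the W box. In the study's gene list, *CsWRKY10*, *CsWRKY50* and *CsWRKY47* are the only 3 of the 61 *CsWRKY* genes with WRKYGKK, whereas *CsWRKY11* and its own segmental duplicate *CsWRKY49* have the standard WRKYGQK.

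The coding sequences around the heptapeptide show how the 2 induced copies resemble each other and *CsWRKY47*. They were read from the study's sequence table and are numbered from the first base of the start codon, and capitals mark the codons of WRKYGKK. For *CsWRKY10* only the first 393 bases of the coding sequence were used here, and its line ends 1 codon ahead of the heptapeptide.
*CsWRKY10*, bases 346 to 393: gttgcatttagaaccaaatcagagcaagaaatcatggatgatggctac
*CsWRKY50*, bases 289 to 360: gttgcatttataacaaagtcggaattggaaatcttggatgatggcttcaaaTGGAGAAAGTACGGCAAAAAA
*CsWRKY47*, bases 163 to 234: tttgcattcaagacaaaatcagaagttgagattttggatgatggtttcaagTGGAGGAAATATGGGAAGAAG

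Over the first 48 bases of these lines, *CsWRKY10* and *CsWRKY50* were identical at 38 positions (79.2%), and 5 of the 10 differences were at the last base of a codon. *CsWRKY50* and *CsWRKY47* shared 37 of the 48 bases (77.1%), and *CsWRKY10* and *CsWRKY47* shared 34 (70.8%). The longest run of identical bases between *CsWRKY10* and *CsWRKY50* was 14 within the first 393 bases of each coding sequence. Between *CsWRKY10* and *CsWRKY11* the longest run was 8 bases, and between *CsWRKY11* and *CsWRKY49* it was 9 bases. These runs too were sought within the first 393 bases only, so the rest of these coding sequences was not compared. The bases of *CsWRKY10* end ahead of its heptapeptide, so its sequence from there on was not compared. Whether fragments could match more than 1 of these genes was not examined. How fragments that match more than 1 gene were counted is not given in the sources used here.

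In the coordinates of the deposited annotation, *CsWRKY10* spans chr2:14723306-14726183 on the minus strand and *CsWRKY11* spans chr2:14764150-14767009 on the plus strand. Between them lie 38.0 kb and 3 other genes. On chromosome 6 the corresponding copies are *CsWRKY49* at chr6:24728797-24731520 on the minus strand and *CsWRKY50* at chr6:24809801-24812529 on the plus strand, with 78.3 kb and 7 genes between them. The 2 genes of each chromosome point away from each other, and the order of the copies is reversed between the chromosomes: the induced gene is the left one on chromosome 2 and the right one on chromosome 6. The RefSeq annotation of the assembly Cucumber_9930_V3 gives other numbers to these loci, and its WRKY50 is not the *CsWRKY50* described here.

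Levels are given in FPKM as deposited, that is, in fragments per length of the gene, scaled for the depth of the library. The gene lengths behind them were 618 bases for *CsWRKY10*, 1506 bases for *CsWRKY11*, 1560 bases for *CsWRKY50* and 1170 bases for *CsWRKY49*. The length of *CsWRKY10* covers its coding sequence alone, while those of the other 3 genes also hold untranslated sequence. Levels of *CsWRKY10* and of the other genes are thus per length but not over the same parts of a transcript.

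The 9 libraries held 18972139 to 22942239 fragments on genes. The study left out replicate 2 of HT3h and replicate 2 of HT6h for poor uniformity. Their mean correlation with the HT0h libraries was 0.901 and 0.896, against 0.924 to 0.942 for the other 4 heated libraries. Within its own time, replicate 2 of HT3h and replicate 3 of HT3h had the same mean correlation with the others to 3 digits (0.966). Replicate 2 of HT6h had 0.961 within its time, the lowest of the 9 libraries, against 0.975 and 0.968 for replicates 1 and 3 of HT6h. Values are given over all 9 libraries, and where it matters over the other 7. Small heat shock proteins, which bind unfolding proteins in heated cells, had summed levels of 333 to 384 FPKM at 0 h, 1478 to 1789 FPKM at 3 h and 697 to 797 FPKM at 6 h over 32 genes. The 20 genes of chlorophyll a/b binding proteins, which mark leaf mesophyll, summed to 57580 to 64751 FPKM at 0 h, 22769 to 66871 FPKM at 3 h and 10556 to 24189 FPKM at 6 h. The 40 genes of phloem proteins summed to 353 to 527 FPKM at 0 h, 298 to 520 FPKM at 3 h and 485 to 783 FPKM at 6 h. The part of these markers in the results below was not tested, and in a whole leaf fewer cells of a type and less RNA per cell cannot be told apart.

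*CsWRKY10* had 2.35, 1.90 and 1.25 FPKM in the 3 HT0h libraries. At 3 h it had 21.0, 32.1 and 12.0 FPKM, and at 6 h it had 75.2, 129.7 and 98.1 FPKM. The 3 times did not overlap, and replicate 2 was the highest library both at 3 h and at 6 h. The means were 1.83 ± 0.55 FPKM at 0 h, 21.7 ± 10.04 FPKM at 3 h and 101.0 ± 27.3 FPKM at 6 h (SD, n = 3 each). On the log2(FPKM + 0.1) scale, the difference was 3.43 ± 0.37 (SE) for HT3h against HT0h and 5.72 ± 0.37 for HT6h against HT0h.

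Per fragment depth, *CsWRKY10* was 11.9-fold higher at 3 h than at 0 h, with 854 fragments against 63 and an exact (Clopper-Pearson) 95% interval of 9.21 to 15.6. At 6 h it was 55.7-fold higher than at 0 h, with 4112 fragments against 63 (interval 43.4 to 72.6). Such intervals pool the fragments of a time, so they cover counting error only and leave out the spread between libraries. The fragments also carried no molecular identifiers. Over the 7 libraries the folds were 8.90 at 3 h and 47.5 at 6 h. Counted from the highest of all genes, *CsWRKY10* stood at rank 697 to 1359 at 6 h, against rank 14446 to 15610 at 0 h.

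*CsWRKY50* was close to undetected before heat, with 0.034, 0.069 and 0.14 FPKM at 0 h, which were 1, 2 and 4 fragments. At 3 h it had 1.03, 9.64 and 3.09 FPKM, and at 6 h it had 36.6, 297 and 51.5 FPKM. As for *CsWRKY10*, the 3 times did not overlap and replicate 2 was the highest heated library at each time. The spread was far wider than in *CsWRKY10*: the highest library was 9.32 times the lowest at 3 h and 8.12 times the lowest at 6 h, against 2.67 and 1.72 times in *CsWRKY10*. A mean therefore describes *CsWRKY50* poorly, and at 6 h it was 128 ± 146 FPKM (SD, n = 3).

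The log2 difference of *CsWRKY50* was 4.22 ± 0.90 for HT3h against HT0h and 8.87 ± 0.90 for HT6h against HT0h. The 6 h value depends on the pseudocount of 0.1 FPKM, which is above the level in the first 2 HT0h libraries. In fragments per depth, *CsWRKY50* was 1658-fold higher at 6 h than at 0 h, from 13606 fragments against 7, with an interval of 805 to 4125. Without the 2 libraries removed by the study it was 549-fold higher, from 2903 fragments against 7 (interval 266 to 1366). At 3 h the ratio was 58.7 over 9 libraries and 25.9 over 7 libraries, so its size at 3 h rests largely on replicate 2, which held 334 of the 468 fragments. Ranked by the log2 difference at 6 h, *CsWRKY50* was in place 1 and *CsWRKY10* in place 39 of the 19468 genes tested.

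*CsWRKY11*, in contrast, stayed at a few FPKM at all times. It had 4.31, 3.37 and 3.25 FPKM at 0 h, 3.58, 1.73 and 3.42 FPKM at 3 h, and 4.91, 2.64 and 4.91 FPKM at 6 h. The 3 times overlapped, and replicate 2 was here the lowest library at 3 h and at 6 h, the reverse of its place for *CsWRKY10* and *CsWRKY50*. The log2 difference was -0.37 ± 0.35 for HT3h against HT0h and 0.14 ± 0.35 for HT6h against HT0h. In fragments the ratios were 0.79 (0.67 to 0.93) at 3 h and 1.12 (0.97 to 1.31) at 6 h. Over the 7 libraries, these ratios became 0.96 (0.80 to 1.15) and 1.34 (1.14 to 1.58). These intervals again leave out the spread between libraries, so an interval without 1 does not by itself mark a change.

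**Figure D1:**
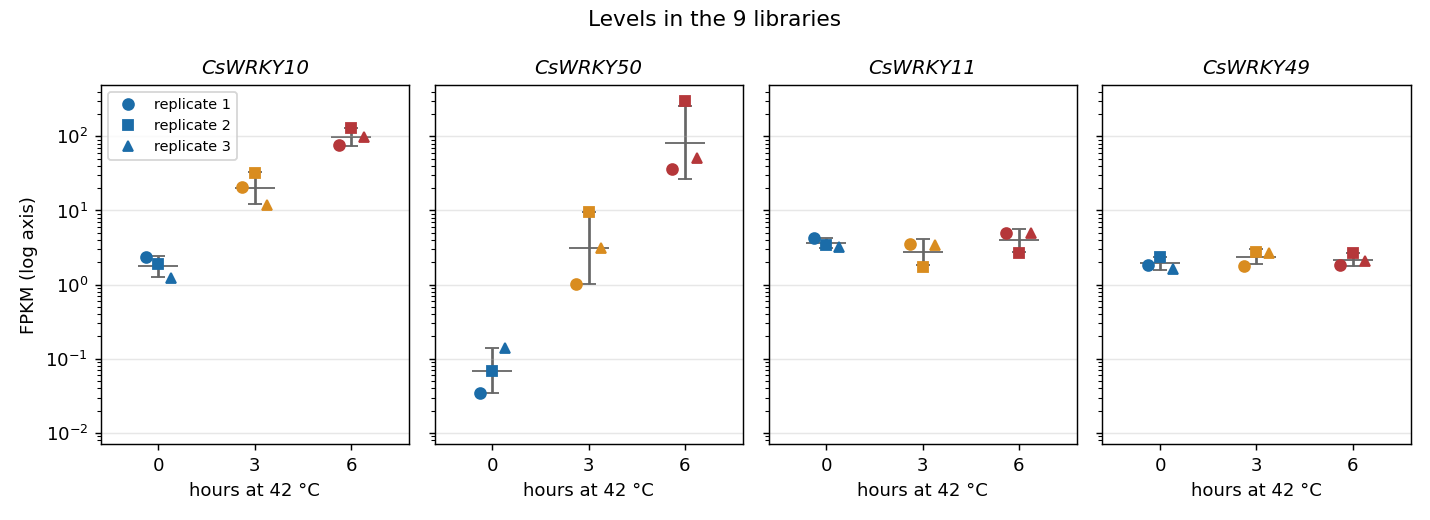
Level in FPKM (log axis) of *CsWRKY10*, *CsWRKY50*, *CsWRKY11* and *CsWRKY49* by hours at 42 °C. Each point is 1 of the 9 libraries, its shape gives the replicate number, and the grey bars give the mean and SD of the log values of a time. Within *CsWRKY10* and within *CsWRKY50* the points of the 3 times do not overlap, while *CsWRKY11* and *CsWRKY49* lie between 1.65 and 4.91 FPKM at all times.

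Of the 3 genes, *CsWRKY10* and *CsWRKY50* passed the study's thresholds (a log2 difference of at least 1 and an adjusted p of at most 0.05) as higher genes at 3 h and at 6 h. Among all 19468 genes, 10.9% did so at 3 h and 12.3% at 6 h. Since the genes were chosen on these differences, nothing is read from that count. Both comparisons share the HT0h libraries.

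The 2 induced genes differed in how far each was ahead. *CsWRKY50* was at 0.015, 0.036 and 0.11 times the level of *CsWRKY10* at 0 h, at 0.049, 0.30 and 0.26 times at 3 h, and at 0.49, 2.29 and 0.52 times at 6 h. Only in replicate 2 of HT6h was *CsWRKY50* the more abundant of the 2 per listed length. In fragments at 6 h, *CsWRKY50* had 1142, 10703 and 1761, against 931, 1852 and 1329 for *CsWRKY10*, whose listed length is shorter. *CsWRKY10* was at 0.54, 0.56 and 0.38 times the level of *CsWRKY11* at 0 h, at 5.85, 18.5 and 3.51 times at 3 h, and at 15.3, 49.1 and 19.99 times at 6 h. The chromosomal neighbours were thus in 1 order in all 3 HT0h libraries and in the other order in all 6 heated ones.

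Together *CsWRKY10* and *CsWRKY50* made up 0.89, 0.73 and 0.52% of the summed FPKM of the 61 *CsWRKY* genes at 0 h, 8.50, 11.1 and 6.27% at 3 h, and 19.9, 40.4 and 27.5% at 6 h. The share of *CsWRKY11* was 1.21 to 1.60% at 0 h, 0.46 to 1.42% at 3 h and 0.25 to 0.90% at 6 h. Within the family, *CsWRKY10* ranked 28, 28 and 34 at 0 h, 2, 2 and 7 at 3 h, and 1, 3 and 1 at 6 h. *CsWRKY50* ranked 55, 49 and 44 at 0 h, 33, 16 and 24 at 3 h, and 3, 1 and 3 at 6 h. *CsWRKY11* ranked 21 to 23 at 0 h, 23 to 36 at 3 h and 25 to 34 at 6 h.

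**Figure D2:**
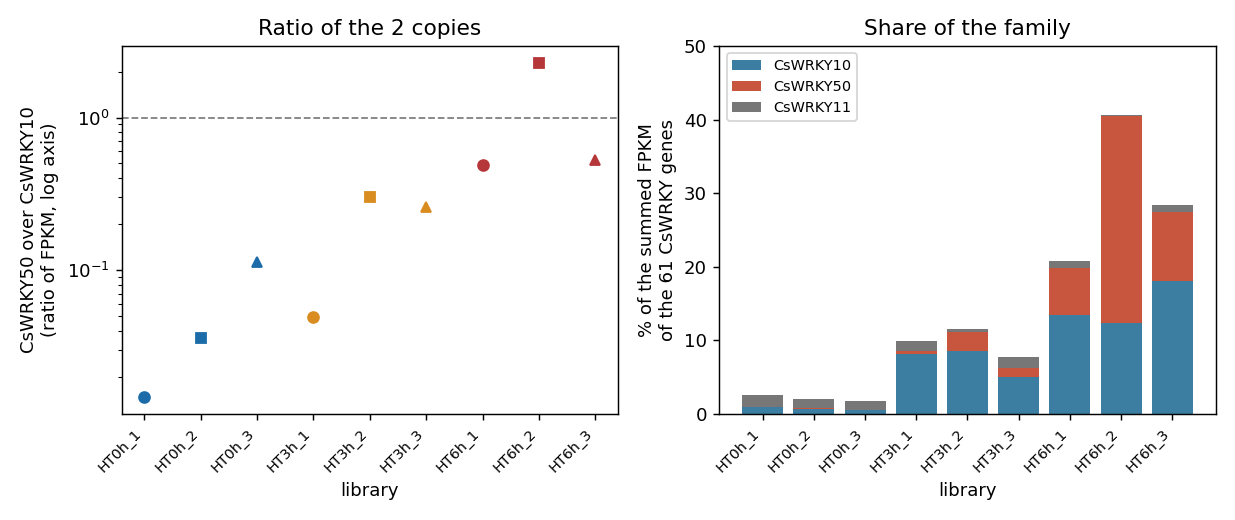
Left, ratio of the FPKM of *CsWRKY50* to that of *CsWRKY10* in each of the 9 libraries (log axis, dashed line at equal levels). Right, share of each of the 3 genes in the summed FPKM of the 61 *CsWRKY* genes. In FPKM, *CsWRKY50* exceeds *CsWRKY10* only in replicate 2 of HT6h, where both make up 40.4% of the sum.

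Over the 9 libraries, *CsWRKY10* and *CsWRKY50* followed each other with Pearson's r = 0.96 on the log2 scale (0.95 over 7 libraries). *CsWRKY11* had r = -0.01 with *CsWRKY10* and -0.09 with *CsWRKY50*. Over the 7 libraries these values were 0.72 and 0.70, and in the libraries removed by the study *CsWRKY11* was low and the other 2 genes were high. All genes of a library share its depth and scaling, so the values describe these libraries and carry no test. The rise of *CsWRKY10* and *CsWRKY50* and the flat course of *CsWRKY11* were the reason for the choice. These correlations therefore follow in large part from it.

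The copy of *CsWRKY11* and the third WRKYGKK gene were tested in the fit across all genes. Both were named with earlier results of these data known. A heat response of the third WRKYGKK gene had also been reported by the study from these data. The adjusted p-values of both genes are therefore not independent of the choice. *CsWRKY49*, the copy of *CsWRKY11* on chromosome 6, had 1.84, 2.38 and 1.65 FPKM at 0 h, 1.81, 2.77 and 2.71 FPKM at 3 h, and 1.84, 2.70 and 2.07 FPKM at 6 h. The 3 times overlapped. Its log2 difference was 0.29 ± 0.29 at 3 h (limma, adjusted p = 0.461) and 0.16 ± 0.29 at 6 h (adjusted p = 0.686), and the fragment ratio at 6 h was 1.14 with an interval of 0.90 to 1.44. No change of *CsWRKY49* beyond the spread of the replicates was detectable.

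*CsWRKY47* (CsaV3_6G032100), the third gene with WRKYGKK, rose after heat at a much lower level. It had 0.05, 0.05 and 0 FPKM at 0 h, 0.38, 0.62 and 0.31 FPKM at 3 h, and 2.14, 3.21 and 2.25 FPKM at 6 h. Every heated library was above every HT0h library. The log2 difference was 2.01 ± 0.39 at 3 h (limma, adjusted p = 0.00490) and 4.32 ± 0.39 at 6 h (adjusted p = 1.48e-04). In fragments it was 80.4-fold higher at 6 h than at 0 h, from 377 fragments against 4, with an interval of 31.1 to 297. Between 6 h and 3 h the log2 difference was 2.32 ± 0.39 and missed the threshold (adjusted p = 0.0501). The deposited annotation lists no protein domain for *CsWRKY47*.

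The other group IIc genes numbered 17, and 15 of them passed the filter on low values. At 3 h, 2 of the 15 rose and 2 fell, beside 10.9% higher and 9.57% lower among all genes. At 6 h, 3 rose and 1 fell, beside 12.3% higher and 10.1% lower. The median log2 difference of the 15 was 0.21 at 3 h and 0.16 at 6 h, where the median of all genes was -0.01 and 0.01. *CsWRKY34* was listed at 0 in all libraries and *CsWRKY44* reached at most 0.12 FPKM, so that both were below the filter. For HT6h against HT3h, limma called none of the 15, while 3 had an unadjusted p below 0.05 and voom called 1. That comparison called 0.375% of all genes.

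Among these genes, *CsWRKY14* rose by 2.58 ± 0.72 at 6 h (limma, adjusted p = 0.0220) and had 1.55, 2.51 and 0.90 FPKM at 6 h, against 0.28, 0.04 and 0.29 FPKM at 0 h. *CsWRKY32* had 0.44, 0.52 and 0.44 FPKM at 6 h and was listed at 0 in all 3 HT0h libraries, with an adjusted p of 0.00407 in the same limma fit. *CsWRKY48* fell by 2.50 ± 0.36 on the log2 scale at 6 h (limma, adjusted p = 0.00129), with 0.16, 0.25 and 0.10 FPKM at 6 h, against 1.38, 1.20 and 1.62 FPKM at 0 h. *CsWRKY20* had 0 FPKM in all libraries at 3 h, against 0.26, 0.53 and 0.09 FPKM at 0 h, and was back at 0.16, 0.57 and 0.23 FPKM at 6 h. Its fall at 3 h (limma, adjusted p = 0.0383) and the rise of *CsWRKY14* at 3 h (adjusted p = 0.0434) were lost over the 7 libraries, with adjusted p = 0.0626 and 0.0996. *CsWRKY36*, with 0.62, 0.94 and 0.09 FPKM at 6 h, against 1.00, 1.77 and 1.76 FPKM at 0 h, was called lower over the 7 libraries only (adjusted p = 0.0365, against 0.159 over 9).

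**Figure D3:**
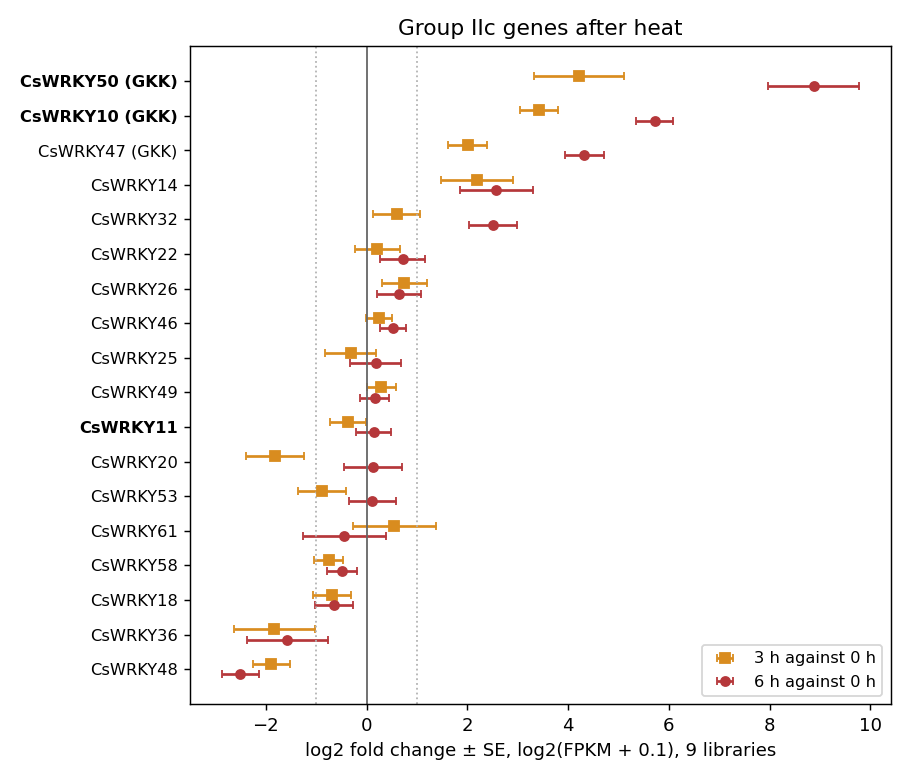
Log2 difference with its SE on the log2(FPKM + 0.1) scale for the 18 group IIc genes that passed the filter, at 3 h (squares) and 6 h (circles) against 0 h, ordered by the 6 h value. Bold names are the 3 genes described, GKK marks the variant heptapeptide, and dotted lines mark a log2 difference of 1. *CsWRKY47*, with 4.32 at 6 h, lies above the other 14 genes tested here. The places of the bold names follow from how they were chosen.

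In the whole family the calls at 6 h were mostly rises. Of the 51 tested *CsWRKY* genes other than these 3, 7 rose and 5 fell at 3 h (10.9% and 9.57% of all genes did), and 14 rose and 1 fell at 6 h (12.3% and 10.1% of all genes). Their median log2 difference was 0.25 at both times. Group III, whose members act in salicylic acid and drought responses in Arabidopsis, had 4 of 6 tested genes higher at 6 h. The 11 group I genes, which all but *CsWRKY42* carry 2 WRKY domains, had 2 of 10 tested genes higher at 6 h and none called at 3 h.

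The study lists 14 segmental pairs of *CsWRKY* genes, some of which share a gene, and both copies passed the filter in 10 of them. *CsWRKY10* and *CsWRKY50* differed from each other by 3.16 in their log2 difference at 6 h and by 0.79 at 3 h. *CsWRKY11* and *CsWRKY49* were 0.02 apart at 6 h (0.14 against 0.16) and 0.66 apart at 3 h. Over the 7 libraries their values at 6 h were 0.43 and 0.01. The widest gap was that of *CsWRKY12* and *CsWRKY38*, with 5.12 against -0.12 at 6 h. Of the 9 pairs other than *CsWRKY10* and *CsWRKY50*, 1 had both copies higher at 6 h (*CsWRKY52* at 1.69 and *CsWRKY56* at 3.68), 3 had a single copy called, and in 5 neither copy was called.

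**Figure D4:**
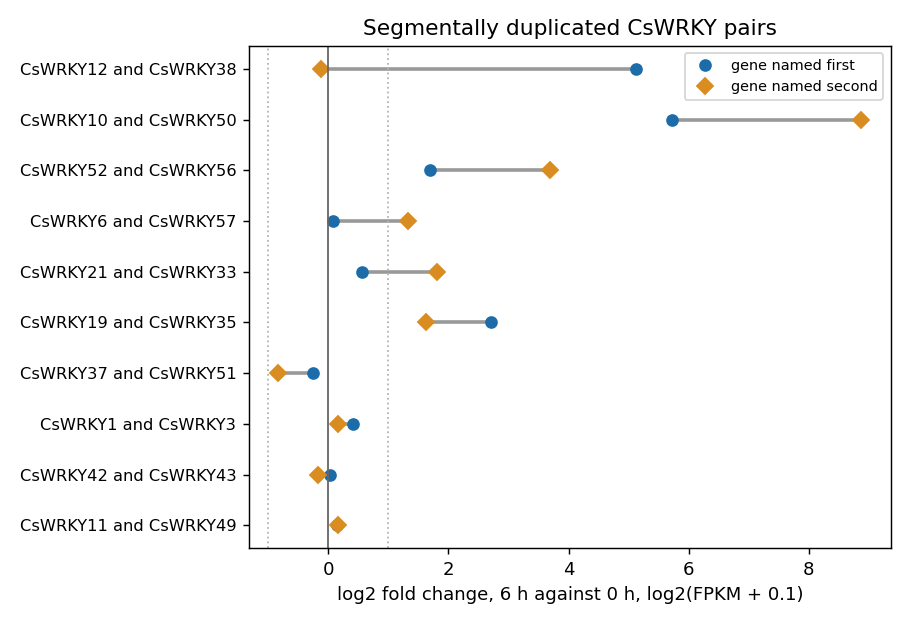
Log2 difference at 6 h against 0 h of both copies of the 10 segmental *CsWRKY* pairs that passed the filter, ordered by the gap between copies. Circles are the gene named first, diamonds the gene named second, and dotted lines mark a log2 difference of 1. *CsWRKY10* and *CsWRKY50* lie at 5.72 and 8.87, and *CsWRKY11* and *CsWRKY49* at 0.14 and 0.16.

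The duplicated segments around both pairs were then read gene by gene. Among the 10 genes on each side and those between, the 2 windows shared annotated domains: a shikimate dehydrogenase (CsaV3_2G017780 and CsaV3_6G042130), which acts in the synthesis of aromatic amino acids, an AP2 domain gene (CsaV3_2G017810 and CsaV3_6G042110), and cytochrome P450 genes (CsaV3_2G017840, and 4 genes on chromosome 6). The shikimate dehydrogenase genes lay beyond *CsWRKY11* and beyond *CsWRKY49*, on opposite strands. The AP2 genes lay on the same sides but both on the plus strand. The cytochrome P450 genes lay beyond *CsWRKY11* on chromosome 2 but beyond *CsWRKY50* on chromosome 6. How often windows elsewhere share such domains was not counted, so a common origin of these genes was not tested. The shikimate dehydrogenase genes had log2 differences at 6 h of 0.46 on chromosome 2 and -0.42 on chromosome 6, and neither was called. No other gene of either window reached the log2 difference of *CsWRKY10* or *CsWRKY50* at 6 h. That place of these 2 genes follows from how they were chosen.

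Between *CsWRKY10* and *CsWRKY11* lie a Ras family gene (CsaV3_2G017730), a gene with no listed domain (CsaV3_2G017740) and a mitochondrial carrier gene (CsaV3_2G017750). Their log2 differences at 6 h were 0.45, -0.22 and -0.34. None of these 3 was called by limma or voom at 3 h or 6 h, although 2 of them had an unadjusted p below 0.05 at 3 h and 1 at 6 h. Among all genes, limma called 10.9% higher and 9.57% lower at 3 h, and 12.3% and 10.1% at 6 h. With only 3 genes, nothing is read from a count of none.

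At 3 h and at 6 h, 9.57% and 10.1% of all genes were called lower over the 9 libraries. Of the 7 genes between *CsWRKY49* and *CsWRKY50*, 1 was called lower, at both times, and none higher. It was CsaV3_6G042240, with no listed domain, which had 4.89, 7.06 and 4.46 FPKM at 6 h, against 12.9, 10.3 and 15.0 FPKM at 0 h (log2 difference -1.22 ± 0.27, limma, adjusted p = 0.00838). It overlaps CsaV3_6G042250 on the other strand, and strand use in counting is not given in the sources used here, so reads of the 2 genes cannot be told apart. Over the 7 libraries CsaV3_6G042250 was called higher at 3 h (log2 difference 1.04 ± 0.26, limma, adjusted p = 0.0218) and at 6 h (1.19 ± 0.26, adjusted p = 0.0115). The gene next to *CsWRKY50*, an iron-sulphur cluster gene (CsaV3_6G042270), had 52.0, 87.6 and 50.5 FPKM at 6 h, against 33.9, 33.6 and 29.1 FPKM at 0 h. Its log2 difference of 0.93 ± 0.24 at 6 h (limma, adjusted p = 0.0175) was under the fold threshold. At 3 h it was 0.95 ± 0.24 over the 9 libraries, and over the 7 libraries it was 1.00 ± 0.20 and was called (limma, adjusted p = 0.00899). The other 5 genes between them were a spatacsin gene (CsaV3_6G042210, 0.63 at 6 h), a glycosyl hydrolase gene (CsaV3_6G042220, -0.39), a tRNA guanylyltransferase gene (CsaV3_6G042230, -0.66), CsaV3_6G042250 (0.77) and a mitochondrial ATP synthase subunit gene (CsaV3_6G042260, -0.95).

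In the chromosome 2 window, 21 of 23 neighbours were tested, and 1 rose and 2 fell at 6 h, beside 12.3% and 10.1% of all genes. The gene that rose, CsaV3_2G017790, had 43.4, 42.3 and 57.0 FPKM at 6 h, against 4.60, 4.09 and 3.44 FPKM at 0 h (log2 difference 3.52 ± 0.17, limma, adjusted p = 7.57e-06). It has no listed domain and lies inside the shikimate dehydrogenase gene on the other strand. Reads of these 2 genes cannot be told apart either, since strand use in counting is not given. Those that fell were 2 GDSL lipase genes, CsaV3_2G017630 (-2.95 ± 0.44, limma, adjusted p = 0.00145) and CsaV3_2G017640 (-1.66 ± 0.40, adjusted p = 0.0127). CsaV3_2G017800 fell at 3 h only (limma, adjusted p = 0.0178), and over the 7 libraries this was lost (adjusted p = 0.0571).

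In the chromosome 6 window, 22 of 27 neighbours were tested, and 4 rose and 2 fell at 6 h, against the same 12.3% and 10.1% of all genes. CsaV3_6G042120 rose by 2.64 ± 0.24 (limma, adjusted p = 1.51e-04), CsaV3_6G042310, a protein kinase gene, by 1.57 ± 0.40, CsaV3_6G042360, a cytochrome P450 gene, by 1.13 ± 0.31, and CsaV3_6G042100, a PPR repeat gene, by 1.07 ± 0.21. CsaV3_6G042310 and CsaV3_6G042360 each overlap another listed gene. CsaV3_6G042170 fell to 2.27, 0.97 and 2.27 FPKM at 6 h, against 17.004, 16.9 and 21.997 FPKM at 0 h (limma, adjusted p = 3.01e-04). A further gene, CsaV3_6G042290, lies inside *CsWRKY50* on the other strand and had 0 FPKM in all 9 libraries.

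**Figure D5:**
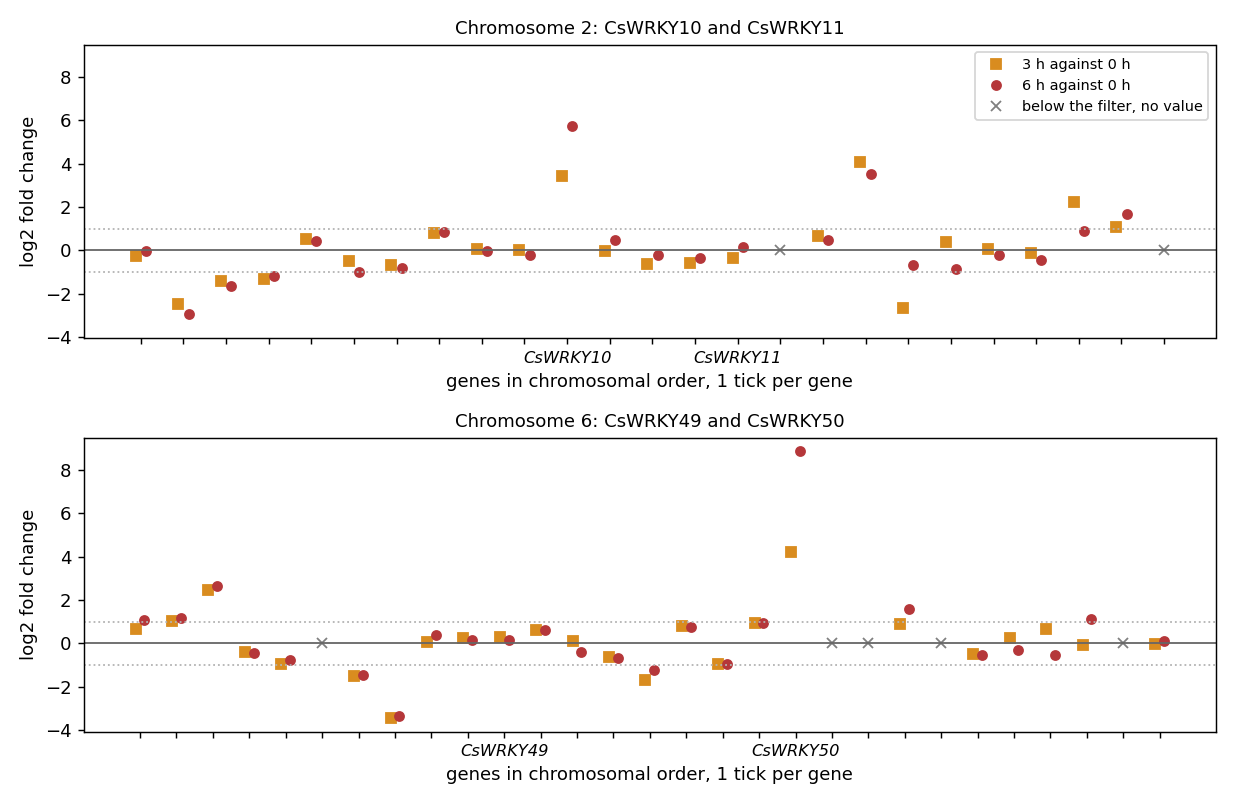
Log2 difference on the log2(FPKM + 0.1) scale at 3 h (squares) and 6 h (circles) against 0 h for the genes around *CsWRKY10* and *CsWRKY11* (top) and around *CsWRKY49* and *CsWRKY50* (bottom), in chromosomal order with 1 tick per gene. Crosses mark genes below the filter, and dotted lines mark a log2 difference of 1. *CsWRKY10* and *CsWRKY50* have the highest 6 h values of their windows, 5.72 and 8.87, which follows from how they were chosen.

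Genes with the most similar course over the 9 libraries were sought among 16582 genes with a mean of at least 1 FPKM. For *CsWRKY10* these were CsaV3_3G016970 with no listed domain (r = 0.998), CsaV3_3G041300, an EF-hand gene of the calcium-binding kind (r = 0.992), and CsaV3_5G027970, an RNA-dependent RNA polymerase gene, an enzyme of RNA silencing (r = 0.989). CsaV3_3G016970 had 24.02, 28.5 and 28.04 FPKM at 6 h, against 0.20, 0.13 and 0.03 FPKM at 0 h. For *CsWRKY50* they were CsaV3_3G039730, a kinesin gene (r = 0.990), CsaV3_3G039930, a gene of the POT family of peptide and nitrate transporters (r = 0.987), and CsaV3_1G005550, another EF-hand gene (r = 0.987). CsaV3_1G005550 had 9.27, 23.9 and 11.02 FPKM at 6 h, against 0.43, 0.21 and 0.33 FPKM at 0 h, with replicate 2 highest as in *CsWRKY50*.

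A correlation of 0.95 or more was found with 161 genes (0.97%) for *CsWRKY10*, 92 (0.55%) for *CsWRKY50* and 1 for *CsWRKY11*. The closest gene to *CsWRKY11* was CsaV3_4G037370, a homeobox gene (r = 0.95), followed by CsaV3_3G017160 (r = 0.91) and CsaV3_7G008570, a guanylate kinase gene (r = 0.91). CsaV3_4G037370 had 12.5, 6.96 and 10.96 FPKM at 6 h, against 8.52, 8.04 and 6.64 FPKM at 0 h, and like *CsWRKY11* it was lowest in replicate 2 of both heated times. The correlation of CsaV3_3G017160 was 0.58 and that of CsaV3_7G008570 was 0.69 over the 7 libraries. Of the 3 genes named for each member, those still among the 3 closest over the 7 libraries were 1 for *CsWRKY10*, 1 for *CsWRKY50* and 0 for *CsWRKY11*. By Spearman's rho it was 1 for each member. The genes named for *CsWRKY10* and *CsWRKY50* kept r of 0.983 or more over the 7 libraries.

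Lists of genes known to work with WRKY factors or in the hormone pathways around them were followed as well, and their counts are to be read against the 10.9% higher and 9.57% lower of all genes at 3 h and the 12.3% and 10.1% at 6 h. VQ proteins bind group I and IIc WRKY proteins in Arabidopsis, and of 23 tested VQ genes (29 listed) 5 rose and 1 fell at 6 h, while 3 rose and 3 fell at 3 h (0 and 3 over the 7 libraries). Their median log2 difference was 0.78 at 6 h and 0.13 at 3 h. The VQ gene CsaV3_5G036860 had 34.3, 27.3 and 21.4 FPKM at 6 h, against 2.74, 1.69 and 2.28 FPKM at 0 h (limma, adjusted p = 4.15e-04). CsaV3_4G029660 had 5.85, 5.50 and 3.43 FPKM at 6 h, against 0.80, 0.30 and 1.22 FPKM at 0 h (limma, adjusted p = 0.00314).

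In the salicylic acid pathway, where NPR1 is the central co-activator in Arabidopsis, 1 of 2 tested NPR1-related genes (3 listed) rose at 6 h and neither was called at 3 h, where 12.3% of all genes rose at 6 h. The gene that rose, CsaV3_7G030280, encodes an NPR1-interacting protein and had 20.1, 42.9 and 22.3 FPKM at 6 h, against 2.71, 0.50 and 2.10 FPKM at 0 h (limma, adjusted p = 0.00108). At 3 h it had 1.09, 2.27 and 1.32 FPKM, within the range of the HT0h libraries. Of 10 tested genes (14 listed) with a domain found in TGA factors, the partners of NPR1, 1 rose at both times. It was CsaV3_3G033620 (1.12 ± 0.31 at 6 h, limma, adjusted p = 0.0207), and over the 7 libraries its difference of 0.91 was under the fold threshold. The annotation lists only a seed dormancy control domain for it, so it is not shown to be a TGA factor. Of 6 tested CAP proteins (17 listed), the family of PR1, 1 rose (CsaV3_4G024500, 1.27 ± 0.20, limma, adjusted p = 0.00175) and 1 fell (CsaV3_7G007580, -2.33 ± 0.63, adjusted p = 0.0199).

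In the jasmonate pathway, 4 of 13 tested tify domain genes, which include the JAZ repressors, rose at 6 h and 2 at 3 h, and none fell, beside 12.3% of all genes higher and 10.1% lower at 6 h. CsaV3_3G046630 had 15.0, 27.3 and 15.7 FPKM at 6 h, against 7.14, 4.999 and 3.52 FPKM at 0 h (limma, adjusted p = 0.00196), and CsaV3_6G051810 had 2.71, 1.02 and 10.1 FPKM at 6 h, against 0.51, 0.38 and 0.52 FPKM at 0 h (adjusted p = 0.0284). Of 14 tested lipoxygenase genes (28 listed), a family of which some enzymes start jasmonate synthesis, 2 rose and 1 fell at 6 h. Which of these genes act in that synthesis is not given by the annotation. CsaV3_2G006460 had 58.2, 41.9 and 58.2 FPKM at 6 h, against 6.88, 2.14 and 1.72 FPKM at 0 h (limma, adjusted p = 0.00157). CsaV3_4G023810 fell to 0.060, 0.087 and 1.298 FPKM at 6 h, against 142, 65.2 and 24.9 FPKM at 0 h (adjusted p = 0.00490).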

How the data were processed

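FPKM values were deposited per library by the authors, and the submitters' processing notes name CASAVA 1.8, HISAT2 2.0.5, StringTie 1.3.3b and featureCounts 1.5.0-p3. The deposited FPKM were scaled by a median-of-ratios factor over the 9 libraries. All 223920 values were whole multiples of the value of 1 fragment (within 0.02), which gave the fragments and the depth. Python scripts and limma 3.58.1 in R 4.3.3 were used on log2(FPKM + 0.1), with the 3 times in 1 fit, an intensity trend, Benjamini-Hochberg adjustment and genes of mean FPKM of at least 0.1 (19468). This scale understates changes of low genes. The limma step was tested on simulated data.

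The genes and lists were chosen with earlier results of these data known. Named were the 3 genes, *CsWRKY49* and *CsWRKY47*, called group IIc genes and neighbours, genes between each pair, the 3 most correlated genes of each member, and the 2 largest called changes at 6 h of each list. Per fragment on genes, the median log2 difference of all genes at 6 h was 0.16 instead of 0.01. Promoters were not used here.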

Additional observations from a re-analysis of the deposited data

How the results depend on the processing

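For *CsWRKY10*, *CsWRKY50* and *CsWRKY11* the log2 differences moved by less than the residual SD under all 18 alternatives, except with a pseudocount of 1 FPKM, which gave 2.04 (*CsWRKY50*, 3 h), 6.28 (*CsWRKY50*, 6 h) and 5.16 (*CsWRKY10*, 6 h). With that pseudocount the call of *CsWRKY47* at 3 h was lost (0.47, limma adjusted p = 0.0510). Its difference between 6 h and 3 h passed the threshold with that pseudocount (1.29), per fragment on genes (2.42) and with voom (2.55). No called result reversed, and *CsWRKY11* at 6 h lay between -0.0046 and 0.43 when 1 library was left out.

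Calls among the other group IIc genes at 3 h were 2 over 7 libraries and with only the groups compared, and 0 with a pseudocount of 1 FPKM or a mean FPKM of 1 or more. Leaving out 1 library gave 2 to 4, with 2 without replicate 1 or 2 of HT0h or of HT3h. At 6 h they were 2 with a pseudocount of 1 FPKM and 1 with a mean FPKM of 1 or more. For 6 h against 3 h, 1 was called with a pseudocount of 1 FPKM, per fragment on genes and with voom. Over all genes, 6 h against 3 h gave 73 calls, 39 over 7 libraries, 12 with no filter, 1 with only the groups compared, and 2 to 68 when 1 library was left out. The 3 h and 6 h counts against 0 h stayed within 1.5 times, at 3029 to 4656 and 3374 to 4585.

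Deviations of same-numbered libraries correlated at 0.48 (replicate 3) and 0.31 (replicate 2) between HT3h and HT6h, but at -0.23 to 0.04 in the other 7 pairs, so the numbers were not taken to pair the libraries. The replicate block gave 4223 calls for HT3h against HT0h, 4585 for HT6h against HT0h and 39 for HT6h against HT3h, with 3, 4 and 0 other group IIc genes among them. Correlations of 0.95 or more numbered 369, 6 and 154 over 7 libraries for *CsWRKY10*, *CsWRKY11* and *CsWRKY50*, and 3 for *CsWRKY11* by Spearman's rho. Depth limits *CsWRKY50* at 0 h and the low group IIc genes.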
